A study of Sus scrofa with 17 samples.

Results

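TAP2 (ENSSSCG00000025593) is 1 gene of the 26560 in the count table, and it was chosen by its measured levels in the 17 kidneys of the 3 groups, so these levels and its differences between groups are given as a description, without a test. It lies on chromosome 7 of the pig assembly Sscrofa11.1, from 25045085 to 25056915 in the RefSeq gene table, inside the major histocompatibility complex, which is called SLA in the pig. TAP2 and TAP1 are the subunits of the transporter associated with antigen processing, a pump of the ABC family in the membrane of the endoplasmic reticulum. Peptides cut by the proteasome in the cytosol are carried by this pump into the endoplasmic reticulum, where a loading complex places them on class I molecules that are then shown to CD8 T cells at the cell surface. The pathway is active at a low level in most cells of the kidney and is known to be raised by interferons, and in a graft it bears on recognition by the recipient.

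The kidneys came from wild type female Dutch Landrace pigs aged 6 months to 1 year, killed at a slaughterhouse, with 1 kidney per animal. Each kidney went through warm ischemia (32 min), then HMP (hypothermic machine perfusion, 24 h) and then NMP (normothermic machine perfusion, 5 h) with autologous blood cells in the perfusate. G1 (5 kidneys) received saline (PBS) in both phases, G2 (6 kidneys) received pUPC-EVs, extracellular vesicles of porcine urine progenitor cells, during HMP only, and G3 (6 kidneys) received them in both phases. The vesicles of several preparations had been pooled into a single lot. G1, G2 and G3 therefore stand for 0, 1 and 2 injections, but the added injection of G3 was also the one given warm, so number and timing cannot be told apart. Biopsies were taken at the end of NMP, and 19270046 to 24736473 reads per kidney were counted on genes. The epithelial markers LRP2 and UMOD were between 1549 and 6628 CPM (TMM-normalised counts, scaled to a common library size by edgeR) in the 17 kidneys, so the defining markers of kidney tissue were present. The sample codes fall into 3 runs, called code series A, B and C here, whose meaning is not stated. In the order G1, G2, G3 there are 2, 2 and 1 kidneys in series A, 2, 0 and 1 in series B, and 1, 4 and 4 in series C.

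TAP2 was highest in the kidneys that had received pUPC-EVs in both phases. In G1 it had 542, 357, 524, 360 and 545 counts in kidneys 1 to 5, which are 23.5, 16.3, 25.0, 18.2 and 23.7 CPM. In G2 it had 590, 587, 514, 524, 459 and 475 counts in kidneys 1 to 6, or 27.1, 23.5, 26.1, 23.7, 20.5 and 25.7 CPM. In G3 it had 960, 588, 1181, 664, 741 and 878 counts, or 38.1, 28.6, 46.4, 30.3, 35.1 and 44.7 CPM. All 6 kidneys of G3 were above all 11 others, while the ranges of G1 and G2 overlapped. The lowest G3 kidney (kidney 2, 28.6 CPM) was close to the highest G2 kidney (kidney 1, 27.1 CPM). The means were 21.3 ± 3.82 CPM in G1 (SD, n = 5), 24.4 ± 2.39 CPM in G2 (SD, n = 6) and 37.2 ± 7.32 CPM in G3 (SD, n = 6). Counting error was small beside this, at 2.91% to 5.29% of a kidney's value, against a coefficient of variation between kidneys of 17.9%, 9.77% and 19.7% in G1, G2 and G3. Over the whole table, every G3 kidney exceeded every G1 kidney for 0.124% of 25719 genes and every G2 kidney for 0.0584% of 25701 genes, and every G2 kidney exceeded every G1 kidney for 0.0817% of 25699 genes. The G3 kidneys exceeded all others for 6 of 26560 genes, or 0.0226%. Since TAP2 was chosen for these levels, nothing is read from its place among these genes. With each library scaled by its total alone, G3 kidney 2 was at 26.58 CPM and G2 kidney 1 at 26.61 CPM, so that G3 and G2 then met, while the highest G1 value was 25.62 CPM.

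**Figure D1:**
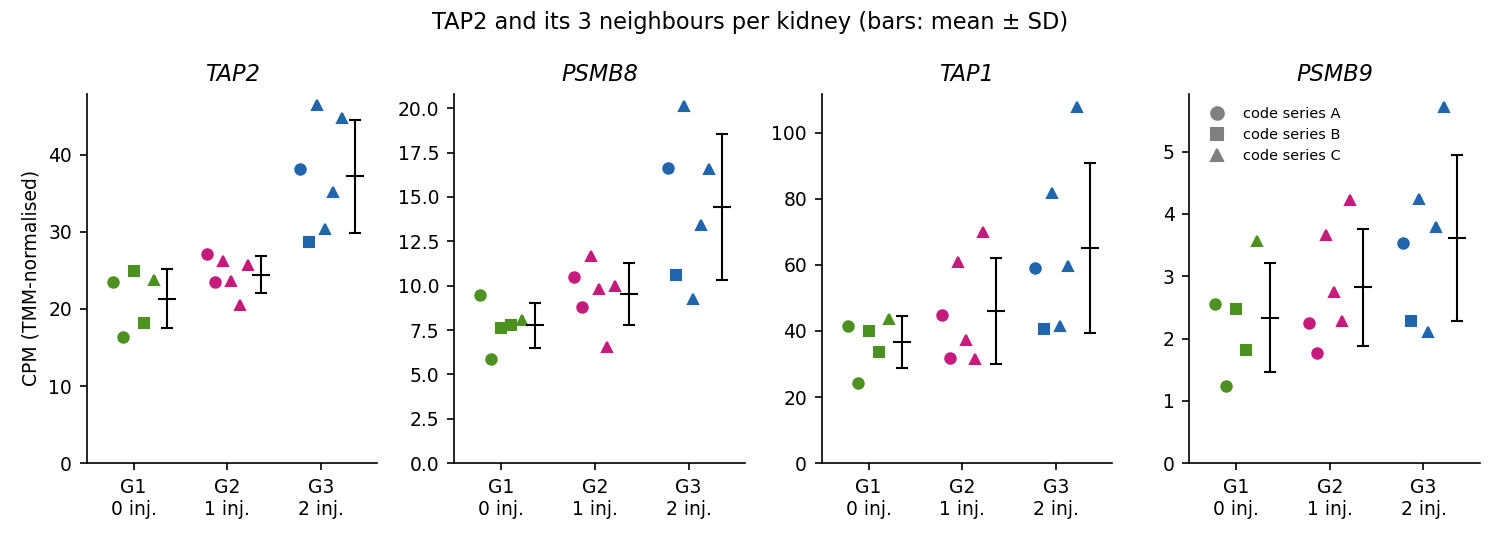
CPM (TMM-normalised) of TAP2, PSMB8, TAP1 and PSMB9 in each kidney by group, with the number of pUPC-EV injections under each group, symbols for the code series and bars for mean ± SD. The 6 G3 kidneys of TAP2 lie between 28.6 and 46.4 CPM, above all others, whereas the groups of the other genes overlap.

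Most of the difference in TAP2 lay between G2 and G3. The log2 fold change from edgeR was 0.20 (standard error 0.140) for G2 against G1 and 0.61 (standard error 0.137) for G3 against G2. The value for G2 against G1 was 0.11 without G1 kidney 2 and 0.10 with library size only. For G3 against G1 it was 0.79 (standard error 0.155), a fold of 1.73. Over all 17 kidneys with the number of injections as a numeric term, TAP2 was higher by 0.41 per injection on the log2 scale (standard error 0.0736), a fold of 1.33. These comparisons share kidneys. Whether the step from 0 to 1 injection differed from the step from 1 to 2 was not tested. In a bulk biopsy, more cells of a type and more RNA per cell cannot be told apart. Within code series A, B and C, mean log2 CPM in G3 was above that in G1 by 0.96, 0.42 and 0.70. Each of these values has 1 kidney on one side. G3 was above G2 by 0.59 in series A and by 0.69 in series C, which has 4 kidneys of each. G2 was above G1 by 0.36 in series A and by 0.01 in series C, where G1 has 1 kidney, and series B holds no G2 kidney. Since every G3 kidney was above all others, the direction of G3 against G1 or G2 within a series was fixed in advance. Only the sizes are read here. The small step from G1 to G2 was not seen in series C.

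On one side, the genes next to TAP2 on the chromosome belong to the same pathway. PSMB8, which starts 1540 bp from TAP2 (25058456 to 25061666), encodes a catalytic subunit of the immunoproteasome, the form of the proteasome that interferon induces. TAP1, the partner subunit, follows from 25062772 to 25071989. PSMB9, another catalytic subunit of the immunoproteasome, lies beside TAP1 from 25072133 to 25077508. The 4 genes together span 32.4 kb. The libraries were made with a stranded kit, but whether counting used the strand is not given in the sources used here, so reads at the borders of neighbouring genes could be assigned to either.

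PSMB8 had the pattern nearest to that of TAP2. It was at 9.45, 5.89, 7.62, 7.79 and 8.04 CPM in kidneys 1 to 5 of G1. In G2 it ran from 6.52 to 11.7 CPM with a median of 9.90 CPM, and in G3 from 9.26 to 20.1 CPM with a median of 14.98 CPM. In 5 of 6 G3 kidneys it was above all G1 kidneys, with G3 kidney 4 as the exception. The log2 fold change of PSMB8 for G3 against G1 was 0.89 (standard error 0.198, edgeR unadjusted p = 0.0003404, adjusted p = 0.460). The adjusted p ran from 0.0212 with DESeq2 to 0.715 with library size alone, and from 0.168 to 0.767 with 1 kidney left out. Against G2 the log2 fold change in G3 was 0.60 (standard error 0.194, edgeR unadjusted p = 0.00634, adjusted p = 0.948). For G2 against G1 it was 0.30 (standard error 0.181, edgeR unadjusted p = 0.118). Per injection PSMB8 was higher by 0.45 (standard error 0.0953, edgeR unadjusted p = 9.597e-05, adjusted p = 0.229). Within code series A, B and C, PSMB8 in G3 was above G1 by 1.15, 0.46 and 0.82 in mean log2 CPM.

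TAP1 was higher in G3 too, with a wider spread. It was at 41.5, 24.2, 40.1, 33.5 and 43.7 CPM in kidneys 1 to 5 of G1. In G2 it ran from 31.5 to 70.0 CPM with a median of 41.0 CPM, and in G3 from 40.6 to 107.7 CPM with a median of 59.4 CPM. The groups overlapped, and G3 kidneys 2 and 4, the lowest of G3 for TAP2, were also the lowest for TAP1. The log2 fold change of TAP1 was 0.81 for G3 against G1 (standard error 0.224, edgeR unadjusted p = 0.00210, adjusted p = 0.672, with a range of 0.1001 to 0.8866 over the alternatives). It was 0.33 for G2 against G1 (standard error 0.216, unadjusted p = 0.145) and 0.50 for G3 against G2 (standard error 0.249, unadjusted p = 0.0587). With 1 kidney left out, the value for G2 against G1 ran from 0.17 to 0.42. Per injection TAP1 was higher by 0.42 (standard error 0.122, edgeR unadjusted p = 0.00242, adjusted p = 0.638). Within code series A, B and C, TAP1 in G3 was above G1 by 0.90, 0.15 and 0.64. Adding the code series to the fit put TAP1 at 0.58 for G3 against G1, under a fold of 1.5. Against G2, TAP1 in G3 passed the fold of 1.5 with an unadjusted p under 0.05 when G2 kidney 3, G2 kidney 6, G3 kidney 2 or G3 kidney 4 was left out, with log2 fold changes of 0.60, 0.66, 0.61 and 0.60. Over all 12 fits that left out 1 kidney, this value ran from 0.30 to 0.66.

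PSMB9 had few counts, from 27 to 112 per kidney. Its mean was 2.33 ± 0.875 CPM in G1 (SD, n = 5), 2.82 ± 0.941 CPM in G2 (SD, n = 6) and 3.61 ± 1.33 CPM in G3 (SD, n = 6). The ranges of all 3 groups overlapped. The log2 fold change was 0.61 for G3 against G1 (standard error 0.303, edgeR unadjusted p = 0.0597) and 0.36 for G3 against G2 (standard error 0.284, unadjusted p = 0.219). Without G1 kidney 5, G3 kidney 2 or G3 kidney 4 the value for G3 against G1 was 0.83, 0.71 and 0.72. It then passed at an unadjusted p under 0.05, as it did at 0.63 with DESeq2. PSMB9 in G3 was above G1 by 0.95, 0.10 and 0.06 in mean log2 CPM within code series A, B and C. Each of these values has 1 kidney on one side. For G2 against G1 the difference was 0.15 in series A and -0.18 in series C, where G1 has 1 kidney. Per injection PSMB9 was higher by 0.32 (standard error 0.149, edgeR unadjusted p = 0.0454, adjusted p = 0.784). That call held in 6 of the 17 fits that each left out 1 kidney, those without G1 kidney 5, G2 kidneys 2, 3 and 6 and G3 kidneys 2 and 4. In the other 11 fits the change per injection was between 0.23 and 0.33.

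**Figure D2:**
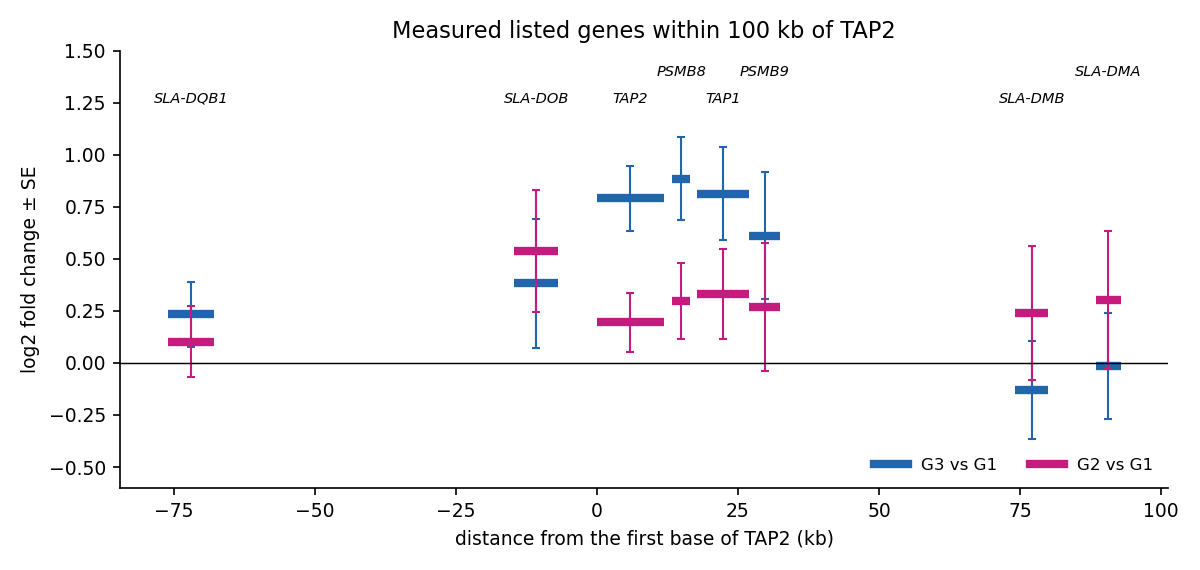
Log2 fold change ± standard error (edgeR) of listed genes within 100000 bp of TAP2, by distance in kb from the first base of TAP2, for G3 against G1 and G2 against G1, with bar width showing the span of the gene. TAP2, PSMB8, TAP1 and PSMB9 lie between 0.61 and 0.89 for G3 against G1, and SLA-DOB, SLA-DQB1, SLA-DMB and SLA-DMA between -0.13 and 0.38.

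The listed genes around these 4 are class II genes, which serve presentation of outside antigens to CD4 T cells. SLA-DOB, 6888 bp before TAP2, had a log2 fold change of 0.38 for G3 against G1 (edgeR unadjusted p = 0.233) and of 0.54 for G2 against G1 (unadjusted p = 0.0835). SLA-DQB1, a class II beta chain, was at 0.23 for G3 against G1. SLA-DMB and SLA-DMA, which help load peptides onto class II molecules, were at -0.13 and -0.02. None of these passed at an unadjusted p under 0.05. BRD2, a chromatin reader 39663 bp from TAP2, is on no list and was not compared here. Whether the change of the class II genes differed from that of TAP2 was not tested.

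Of 22 genes listed for class I processing and presentation, 16 could be matched to a gene of the table, TAP2 included. The class I heavy chains SLA-1, SLA-2, SLA-3, SLA-6, SLA-7 and SLA-8 were not analysed here. For G3 against G1, 13 of the other 15 genes were higher and 2 lower, with a median log2 fold change of 0.16 against -0.02 over all genes tested. With library size only these medians were 0.07 and -0.11. None of the 15 genes had an adjusted p under 0.05 in edgeR, where 0.00778% of all genes did, and voom gave 0. DESeq2 gave 1 (PSMB8), with 31 calls among all 25719 genes against 2 in edgeR. An unadjusted p under 0.05 was found for 2, PSMB8 and TAP1, where 4.73% of all genes had one. Both also met the criterion that the study used, a fold over 1.5 with p under 0.05 (taken here on the unadjusted p), which 3.38% of all genes met (1.24% as higher and 2.14% as lower). For G2 against G1, 10 were higher and 5 lower, with a median of 0.05 against -0.01. The class I median was 0.03 without G1 kidney 2 and 0.15 without G2 kidney 2. It was -0.01 with library size only, against -0.09 over all genes. None of the 15 was called at an adjusted p (0% of all genes), by the criterion (2.63% of all genes, 0.864% as higher and 1.77% as lower) or at an unadjusted p under 0.05 (3.51%) in edgeR, and DESeq2 and voom gave 0 adjusted calls as well. For G3 against G2, 11 were higher and 4 lower, with a median of 0.16 against -0.00. The class I median was 0.08 without G3 kidney 3 and 0.25 without G2 kidney 4. None of the 15 genes had an adjusted p under 0.05 in edgeR (0% of all genes) or DESeq2. PSMB8 and NLRC5 met the criterion as higher and ERAP1 as lower, where 2.55% of all genes met it, 1.35% as higher and 1.20% as lower, and these 3 were also the ones with an unadjusted p under 0.05 (3.13% of all genes). Per injection, 13 were higher and 2 lower, with 0 adjusted calls in edgeR (0% of all genes) and 1 in DESeq2 (PSMB8, adjusted p = 0.0309), which called 13 of all 26560 genes. PSMB8, TAP1 and PSMB9 met the criterion there, taken as a fold over 1.5 from 0 to 2 injections. Of all genes, 5.11% met it (1.97% as higher and 3.14% as lower). No further gene of the 15 had an unadjusted p under 0.05 (6.12% of all genes). These shares include genes with as little as 1 count in the kidneys compared. With filterByExpr, which leaves out genes with few counts, 319 of 15261 genes met the criterion for G3 against G1. It was met by 192 of 15250 for G2 against G1, 213 of 15033 for G3 against G2 and 295 of 15313 per injection.

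**Figure D3:**
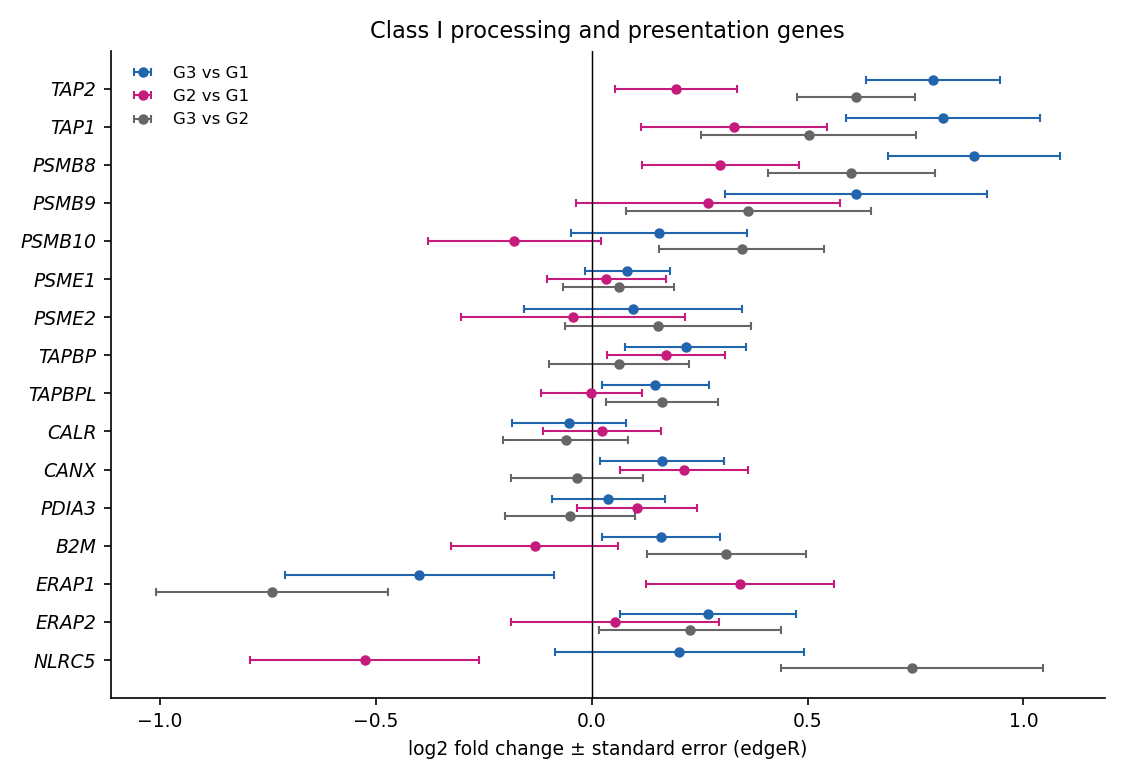
Log2 fold change ± standard error (edgeR) of TAP2 and 15 other class I genes for G3 against G1, G2 against G1 and G3 against G2. TAP2, TAP1, PSMB8 and PSMB9 stand to the right for G3 against G1, most others lie near 0, and ERAP1 and NLRC5 take different directions in different comparisons.

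Genes for partners of the transporter in the loading complex did not pass the test in edgeR with all kidneys in the fit. TAPBP encodes tapasin, which bridges the transporter and the class I molecule, and it was at 56.8 ± 5.10 CPM in G1 (SD, n = 5), 64.0 ± 11.3 CPM in G2 (SD, n = 6) and 66.7 ± 16.2 CPM in G3 (SD, n = 6). Its log2 fold change for G3 against G1 was 0.22 (standard error 0.140, edgeR unadjusted p = 0.138), and 0.31 without G3 kidney 1 (unadjusted p = 0.0350, adjusted p = 0.708). Over all 11 fits that left out 1 kidney it ran from 0.10 to 0.31. TAPBPL, a relative of tapasin that edits bound peptides, was at 0.15, and the chaperones CALR, CANX and PDIA3 were at -0.05, 0.16 and 0.04. With 1 kidney left out TAPBPL ran from 0.06 to 0.21, CALR from -0.10 to 0.03, CANX from 0.105 to 0.23 and PDIA3 from -0.0017 to 0.12. B2M, the light chain shared by all class I molecules, was at 304.7, 202.8, 278.8, 260.9 and 223.5 CPM in kidneys 1 to 5 of G1. It ran from 124 to 334 CPM in G2 and from 233 to 342 CPM in G3, so that all 3 groups overlapped. Its log2 fold change was 0.16 for G3 against G1 (standard error 0.137, edgeR unadjusted p = 0.258) and 0.31 for G3 against G2 (standard error 0.185, unadjusted p = 0.109). The latter was 0.44 without G2 kidney 4 (edgeR unadjusted p = 0.0246, adjusted p = 0.978) and 0.18 without G2 kidney 6. The third catalytic subunit of the immunoproteasome, PSMB10, which lies elsewhere in the genome, was at 0.16 for G3 against G1 (standard error 0.203, edgeR unadjusted p = 0.453). With 1 kidney left out this value ran from 0.05 to 0.31. For G3 against G2, PSMB10 ran from 0.23 to 0.47 over such fits, with an edgeR unadjusted p of 0.0256 to 0.235. PSME1 and PSME2, the subunits of the proteasome activator PA28, were at 0.08 and 0.10 for G3 against G1. With 1 kidney left out they ran from 0.05 to 0.11 and from -0.03 to 0.24, so the direction of PSME2 was not kept. Among 13 matched subunits and regulators of the constitutive proteasome, all 13 were higher in G3 than in G1, by 0.01 to 0.20 on the log2 scale. Their median was 0.09 against -0.02 over all genes tested, and 0 had an unadjusted p under 0.05, where 4.73% of all genes had one.

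ERAP1 and NLRC5 had other patterns than TAP2. ERAP1, the aminopeptidase that trims peptides after TAP has carried them in, was at 20.9 ± 7.42 CPM in G1 (SD, n = 5), 26.5 ± 5.86 CPM in G2 (SD, n = 6) and 15.8 ± 8.07 CPM in G3 (SD, n = 6). It was lower in G3 than in G2 by a log2 fold change of -0.74 (standard error 0.269, edgeR unadjusted p = 0.0132, adjusted p = 0.948). This call was lost without G3 kidney 2, which had 6.13 CPM, at -0.58. Against G1 the log2 fold change of ERAP1 in G3 was -0.40 (standard error 0.311, edgeR unadjusted p = 0.216), and it passed at an unadjusted p under 0.05 without G3 kidney 3 (-0.68) or with the code series in the fit (-0.70). Over all 11 fits that left out 1 kidney, ERAP1 ran from -0.68 to -0.23. Per injection it met the criterion as lower with the code series in the fit (-0.39, edgeR unadjusted p = 0.0379, adjusted p = 0.937). ERAP2, a second trimming enzyme, was at 0.27 for G3 against G1 (standard error 0.205), and from 0.16 without G3 kidney 3 to 0.44 without G1 kidney 3 (edgeR unadjusted p = 0.0470, adjusted p = 0.867). NLRC5, the transactivator that drives class I genes, was at 8.26 ± 2.19 CPM in G1 (SD, n = 5), 5.73 ± 2.24 CPM in G2 (SD, n = 6) and 9.55 ± 4.34 CPM in G3 (SD, n = 6). Its log2 fold change was 0.74 for G3 against G2 (standard error 0.303, edgeR unadjusted p = 0.0249, adjusted p = 0.948). It was -0.53 for G2 against G1 (standard error 0.266, unadjusted p = 0.0642) and 0.20 for G3 against G1 (standard error 0.289, unadjusted p = 0.492). With 1 kidney left out, the value for G3 against G1 ran from 0.02 to 0.34. The call for G3 against G2 was lost without any 1 of 6 kidneys, G2 kidneys 1, 3 and 6 and G3 kidneys 1, 3 and 5, at 0.66, 0.65, 0.64, 0.67, 0.64 and 0.56. For G2 against G1, NLRC5 was at -0.66, -0.61 and -0.69 without G1 kidney 4, G2 kidney 4 and G2 kidney 5 and at -0.78 with the code series in the fit, and then passed. For PSMB8, the call for G3 against G2 was lost without G2 kidney 2, G2 kidney 5, G3 kidney 1, G3 kidney 3 or G3 kidney 6, at 0.57, 0.51, 0.56, 0.48 and 0.56, whereas its calls for G3 against G1 and per injection were kept in all 11 and all 17 fits that left out 1 kidney.

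Kidneys of the same group also differed in TAP2. The gene was chosen by its level in these kidneys, and its relation to other genes within groups was not part of that rule. Each kidney's log2 CPM was taken as a deviation from the mean of its group. TAP2 deviated most in G1 kidney 2 (-0.37), G3 kidney 2 (-0.35) and G3 kidney 3 (0.34). TAP2 had a within-group standard deviation of 0.24, the square root of the mean variance of the 3 groups. PSMB8 followed it with a Pearson r of 0.851 and a Spearman rho of 0.784 (permutation within groups, p = 6e-05 and 0.00064, adjusted over 15 genes 0.00045 and 0.00335). TAP1 followed with r of 0.844 and rho of 0.868 (permutation p = 5e-05 for both, adjusted 0.00045 and 0.00075). PSMB9 had r of 0.793 and rho of 0.811 (permutation p = 0.00094 and 0.00067, adjusted 0.0047 and 0.00335). A block for sample number makes deviations cancel within each number, so permuting them within groups gave only an approximate p. With this block, r fell to 0.69, 0.64 and 0.61 for PSMB8, TAP1 and PSMB9. None of them kept the call (adjusted permutation p = 0.0548, 0.0590 and 0.0769). Under the block these 3 no longer stood apart, since r was 0.61 for TAPBPL (adjusted permutation p = 0.0548), 0.60 for PSME2 (adjusted permutation p = 0.0769), 0.52 for PSMB10 and -0.54 for CANX. Without the kidneys farthest from the median, G1 kidney 2 and G3 kidney 2, r was 0.805, 0.784 and 0.692 for PSMB8, TAP1 and PSMB9. Within code series C alone, over 8 kidneys of G2 and G3, r was 0.956, 0.899 and 0.889. In the same 8 kidneys, genes outside these 4 had r of 0.834 (TAPBP), 0.736 (TAPBPL), 0.730 (CALR) and 0.612 (PDIA3). Without the pair of kidneys farthest from the median, r over the remaining 15 kidneys was 0.620 for TAPBPL. The other 12 genes had r between 0.012 and 0.490, and the smallest adjusted permutation p among them was 0.264 for r and 0.121 for rho. For B2M r was 0.280 and rho 0.520 (permutation p = 0.207 and 0.0403, adjusted 0.373 and 0.121), and r was 0.521 without G2 kidney 6 (adjusted permutation p = 0.207) and 0.180 without G1 kidney 2. For NLRC5 r was 0.225 (permutation p = 0.424, adjusted 0.578), 0.038 without G3 kidney 2 and 0.588 with library size only (adjusted permutation p = 0.0671). Scaled by library total alone, only PSMB8 kept an adjusted permutation p under 0.05, and r was 0.699 for TAP1 and 0.692 for PSMB9 with adjusted p of 0.0516 and 0.0543.

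**Figure D4:**
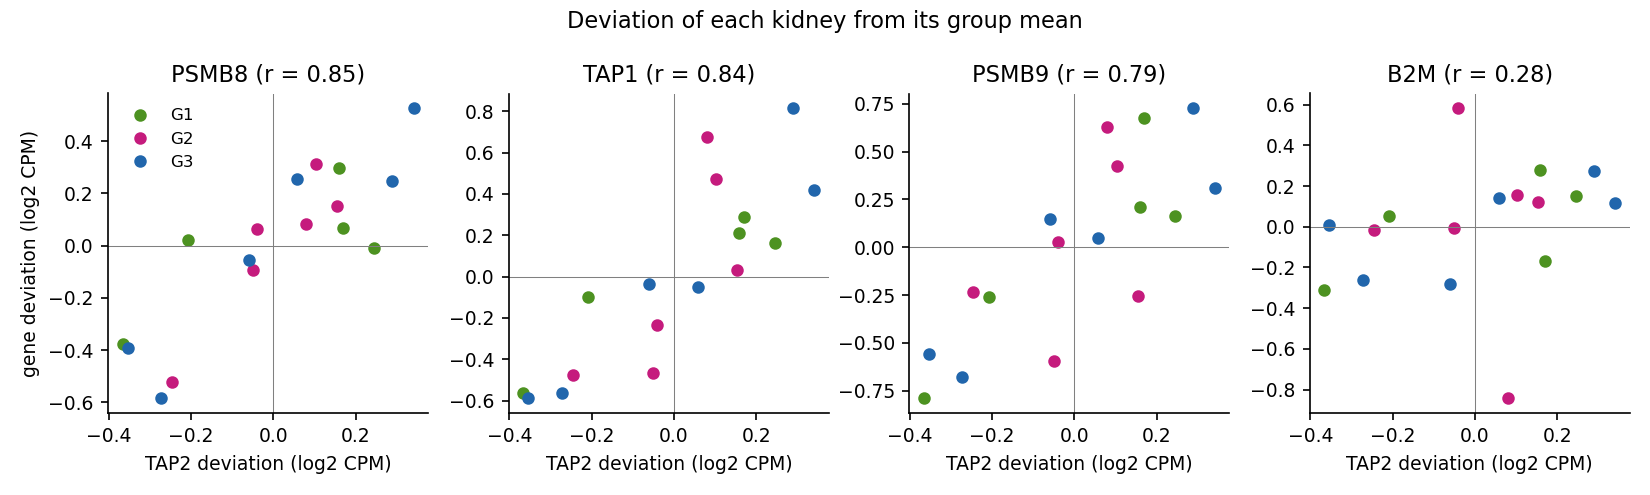
Deviation of each kidney from its group mean in log2 CPM, with TAP2 on the x axis and PSMB8, TAP1, PSMB9 or B2M on the y axis, coloured by group. Over the 17 kidneys points rise for PSMB8, TAP1 and PSMB9 (r of 0.85, 0.84 and 0.79) and scatter more for B2M (r of 0.28, and 0.52 without G2 kidney 6).

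Among all 13710 genes with a mean above 1 CPM, the gene most like TAP2 over the 17 kidneys was PSMB8, with a Pearson r of 0.94 in log2 CPM. The next were ENSSSCG00000017754, without a symbol in the table used (0.90), SP140 (0.89), IFI44 (0.88), DDX60 (0.87), TAP1 (0.86), HERC5 (0.85), PARP12 (0.85), PARP9 (0.83) and NUB1 (0.83). IFI44, DDX60, HERC5, PARP9 and PARP12 are known as interferon-stimulated genes, and HERC5 is the ligase that attaches ISG15 to proteins. Ranked by deviations from group means instead, the first 10 were PSMB8 (0.85), TAP1 (0.84), SLC5A8 (0.82), IRX5 (0.81), RASL11B (0.81), PSMB9 (0.79), UBD (0.79), SGCD (0.79), ENSSSCG00000006148 (0.78) and ENSSSCG00000017754 (0.78). PSMB8, TAP1 and ENSSSCG00000017754 were in both lists. Over all 17 kidneys, where the difference between groups adds to the likeness, r with TAP2 was between 0.10 and 0.41 for SLC5A8, IRX5, RASL11B, UBD and SGCD. These r are descriptions over kidneys that share normalisation, and the highest of the 13710 are given.

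Interferon signalling is known to switch on TAP2, and the list read for it holds receptors, kinases and transcription factors as well as the inhibitors SOCS1 and SOCS3 and IRF2, which is known to oppose IRF1. Of 17 listed genes, all matched, 14 were above and 3 below their level in G1, with a median log2 fold change of 0.18 against -0.02 over all genes tested. For G3 against G1, none had an adjusted p under 0.05 in edgeR or met the criterion, and 4 had an unadjusted p under 0.05, as 4.73% of all genes did. IFNAR2, a chain of the type I interferon receptor, was at 0.37 (standard error 0.104, edgeR unadjusted p = 0.00225). IRF9 and STAT2, which act together on interferon-responsive promoters, were at 0.43 (standard error 0.133, edgeR unadjusted p = 0.00525) and 0.47 (standard error 0.173, unadjusted p = 0.0141). IRF7, which amplifies the type I response, was at 0.58 (standard error 0.218, edgeR unadjusted p = 0.0172). IRF1, which is known to act on the promoter between TAP1 and PSMB9, was at 0.50 (edgeR unadjusted p = 0.0850). For G3 against G2, IRF9, STAT2 and IRF7 again had an unadjusted p under 0.05 (3.13% of all genes), at 0.43, 0.44 and 0.52, with IRF2 at 0.39. For G2 against G1 they were at 0.01, 0.05 and 0.07, and the 1 gene with an unadjusted p under 0.05 (3.51% of all genes) was IFNAR2, at 0.28. Per injection, 4 of the 17 had an unadjusted p under 0.05 (6.12% of all genes). Of these, 1 met the criterion (5.11% of all genes), IRF7 at 0.30 (edgeR unadjusted p = 0.0125, adjusted p = 0.784). Of 6 listed interferon genes, 4 were matched, IFNL1 and IFNL3 were not, and no interferon alpha gene was on the list. IFNG and IFNB1 were near the floor of detection, with 1 to 13 and 0 to 20 counts per kidney. None of the 4 matched ligands had an unadjusted p under 0.05 in any of these comparisons.

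Among class II genes, 10 of 12 were matched and 1 had an unadjusted p under 0.05 for G3 against G1 (4.73% of all genes). It was the class II alpha chain gene SLA-DRA, listed in the table as HLA-DRA, at 0.44 (standard error 0.163, edgeR unadjusted p = 0.0155), and it was at 0.38 for G2 against G1 (unadjusted p = 0.0348) and at 0.08 for G3 against G2. CIITA, the class II counterpart of NLRC5, was at 0.19 for G3 against G1 (unadjusted p = 0.240) and CD74, the class II chaperone, at 0.14. Among the other transporters of ABC subfamily B, which share the fold of TAP2, 7 of 9 were matched, and only TAP1 had an unadjusted p under 0.05 for G3 against G1. ABCB9, the relative of TAP found in lysosomes, was at 0.27 (edgeR unadjusted p = 0.326).

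Leukocytes carry high levels of class I genes, so their markers were read beside TAP2. The summed level of 22 of 24 leukocyte markers was 134 to 194 CPM in G1, 140 to 213 CPM in G2 and 155 to 180 CPM in G3, with medians of 168, 168 and 171 CPM. None of the 22 had an unadjusted p under 0.05 for G3 against G1 (4.73% of all genes), 10 were higher and 12 lower, and none was at 0 in every kidney of a group. For G2 against G1, 1 of the 22 met the criterion, as 2.63% of all genes did. It was CD14, a marker of monocytes, at 0.72 (standard error 0.178, edgeR unadjusted p = 0.000826, adjusted p = 0.840). In the same comparison all 10 endothelial markers were higher, with a median log2 fold change of 0.18 against -0.01 over all genes tested, and 1 met the criterion, EHD3 of glomerular endothelium at 0.62 (edgeR unadjusted p = 0.0498). Of 12 epithelial markers 8 were higher, and 1 met it, the collecting duct water channel AQP2 at 0.67 (edgeR unadjusted p = 0.0432). PTPRC, the leukocyte marker CD45, was at 6.58 to 20.2 CPM in G1 and at 8.25 to 15.2 CPM in G3. The summed level of 10 of 11 endothelial markers was 889 to 1050 CPM in G1, 710 to 1435 CPM in G2 and 746 to 1447 CPM in G3. Of these, 8 were above and 2 below their G1 level in G3, at a median log2 fold change of 0.23 against -0.02 over all genes tested. ERG (0.46) and PECAM1 (0.31) were the 2 with an unadjusted p under 0.05 (edgeR unadjusted p = 0.00173 and 0.0342, adjusted p = 0.649 and 0.813), as 4.73% of all genes had. The part of endothelial cells in the level of TAP2 was not tested. Epithelial markers (12 of 13) summed to 8489 to 12180 CPM in G1, 9094 to 14740 CPM in G2 and 7314 to 15210 CPM in G3, and red cell markers (6 of 7) to 15.2 to 38.0 CPM, 19.5 to 60.6 CPM and 22.3 to 49.3 CPM. Most of the red cell sum was SLC4A1, the anion exchanger that kidney intercalated cells also make, with means of 24.6, 36.2 and 32.3 CPM in G1, G2 and G3. For G3 against G2, 5 of the 6 red cell markers were lower, with a median log2 fold change of -0.96 against -0.00 over all genes tested. HBB, a globin, was at -1.21 (standard error 0.508, edgeR unadjusted p = 0.0286, adjusted p = 0.948) and met the criterion, as 2.55% of all genes did. The part of blood cells in the level of TAP2 was not tested.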

How the data were processed

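The authors trimmed adapters with cutadapt 4.0, aligned read pairs with STAR to Sscrofa11.1 and deposited, per kidney, the raw counts of each gene, not normalised. The counting program is not given in the sources used here. A table of the authors' DESeq2 comparison of G3 with G1 (mean counts, fold changes and p-values) was not used. The members and gene lists were chosen with earlier results of these data known. Symbols came from a gene table for 15093 of 26560 identifiers, and coordinates from the RefSeq gene table of the same build. Named genes were TAP2, the class I list, members of other lists a sentence counts, and the 10 genes most correlated with TAP2 in each of the rankings.

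Groups were taken from the sample labels. Counts were tested in R 4.3.3 with edgeR 4.0.16 (quasi-likelihood test, TMM normalisation), leaving out genes with no count (under 1) in the kidneys compared, with Benjamini-Hochberg adjustment over all genes tested. The study's criterion of a fold over 1.5 with p under 0.05, taken here on the unadjusted p, was counted as well. Log2 CPM used a prior count of 2. Correlations within groups were tested, two-sided, with 100000 permutations within groups (Python 3.11.15, scipy 1.17.1, numpy 2.4.6). Alternatives were DESeq2 1.42.0, limma 3.58.1 voom with quality weights, RLE size factors, library size only, filterByExpr, at least 10 counts in every kidney, a block for sample number, the code series as a covariate, all 3 groups in one fit, a prior count of 0.5 for the correlations, and leaving out each kidney in turn. The scripts were tested on simulated data. Over 40 pairs of kidneys of the same group, counts differed by more than counting error in each, so no kidney was counted as a repeat of another. Per kidney, 18813 to 21049 genes were detected, and the depth behind TAP2 was 357 to 1181 counts.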

Additional observations from a re-analysis of the deposited data

Results flagged for a closer look

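Single kidneys far from the rest of their group were looked for with Dixon's test in 48 groups of values (TAP2 and the 15 other class I genes in each of 3 groups), and 2 were found, where chance alone gives about 1 in 20 groups, or 2.4. TAPBPL, the tapasin relative, was at 27.41 CPM in G1 kidney 1, with the other G1 kidneys between 24.58 and 25.19 CPM. PSME2, a subunit of the proteasome activator PA28, was at 5.146 CPM in G2 kidney 4, with the other G2 kidneys between 2.77 and 3.58 CPM. No kidney stood apart in this way for TAP2, PSMB8, TAP1 or PSMB9.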

How the results depend on the processing

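Since every G3 kidney was above all others for TAP2, leaving out 1 kidney could hardly turn G3 against G1 or G2. The log2 fold change of TAP2 kept its direction in all alternatives tried. With each kidney left out in turn it was 0.71 to 0.86 for G3 against G1, 0.11 to 0.25 for G2 against G1, 0.54 to 0.68 for G3 against G2 and 0.37 to 0.45 per injection, and in the other settings 0.68 to 0.80, 0.10 to 0.22, 0.53 to 0.68 and 0.36 to 0.41. Library size alone moved the median of all genes for G3 against G1 from -0.02 to -0.11, and TAP2 was then at 0.70. The number of class I genes with an adjusted p under 0.05 was 0 and became 1 with DESeq2 for G3 against G1 and per injection (PSMB8 in both), where the calls among all genes went from 2 to 31 and from 0 to 13. By fold and unadjusted p, the number for G2 against G1 went from 0 to 1 with the code series as a covariate (NLRC5) and was 0 to 1 over the fits that left out 1 kidney. For G3 against G2 it went from 3 to 1 with voom and was 1 to 4 over the fits that left out 1 kidney, and 1 without G3 kidney 1 or G3 kidney 3. It was 2 to 3 for G3 against G1 and per injection, and with the code series it held ERAP1, as lower, in both. Among single genes, the call was lost for TAP1 in G3 against G1 with the code series (0.58), for PSMB8 in G3 against G2 with voom (0.46) and with the replicate block (0.58), for NLRC5 in G3 against G2 with voom (0.58) and with library size only (0.72), and for PSMB9 per injection with voom (0.26), library size only (0.26), the replicate block (0.24) and the code series (0.20). The number of class I genes correlated with TAP2 within groups was 3, became 1 with library size only and 0 with the replicate block, and was 3 in all fits without 1 kidney. Kidneys with the same sample number came from different animals and were not taken as pairs. Over 16 pairs with the same number, deviations from group means correlated at -0.26 to 0.45 with a median of 0.104, against -0.00796 over 80 pairs with other numbers, and 8 of the 16 and 27 of the 80 were over 0.1. As a hint from the data, 7 of 17 kidneys correlated best with their own number. With the replicate block, TAP2 was at 0.74, 0.19 and 0.60 for G3 against G1, G2 against G1 and G3 against G2 and at 0.39 per injection, the class I genes past the criterion were 2, 0, 2 and 2, and the genes of the whole table with an adjusted p under 0.05 for G3 against G1 were 9 in place of 2. Correlations with TAP2 under the block were 0.69 for PSMB8, 0.64 for TAP1 and 0.61 for PSMB9. Their adjusted permutation p, approximate under the block, was 0.0548, 0.0590 and 0.0769. The cause of these changes was not tested. Counting depth limits what can be said of genes with few counts, such as IFNG and IFNB1.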
